A study of Mus musculus with 7 samples.

Results

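The mitochondrial ribosomal protein genes encode the protein part of the ribosome that works inside mitochondria. They were taken as every gene of the array whose symbol is Mrpl or Mrps followed by a digit, without pseudogene symbols, measured by a probe that names 1 gene only. This gave 77 of 19752 genes, 48 named for the large subunit (Mrpl) and 29 for the small subunit (Mrps). RNA came from splenic natural killer (NK) cells of male C57BL/6 mice aged 6 weeks, enriched by removing other cell types, listed with the marker NK1.1 and kept in culture for 8 h. The cells of 4 Affymetrix Mouse Gene 1.0 ST arrays had received interleukin 2 (IL2, 250 U/ml; replicates 1 to 4) and those of 3 arrays no cytokine (untreated replicates 2 to 4). No label gives a genetic change in either group. None tells whether replicates came from separate mice, so the spread behind each p-value is that between RNA samples and may be technical.

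Mitochondria keep a small genome whose messages encode core subunits of the respiratory chain, and a ribosome of their own reads those messages. Its RNAs are made inside the organelle, while its proteins are encoded in the nucleus, made in the cytosol and imported. The small subunit decodes the message, and the large subunit forms peptide bonds and docks at the inner membrane, where new chains are inserted. IL2 is a growth factor of NK cells.

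With IL2, 72 of the 77 genes had a higher mean than in untreated cells, beside 45.6% of all genes and 58.2% of genes at least as bright as the median gene. Even so, 0 of the 77 passed the test in either direction. The test was limma with a Benjamini-Hochberg adjusted p under 0.05 over all genes, which called 2.08% of genes higher and 0.901% lower. At an unadjusted p under 0.05, 28 of the 77 were higher and 0 lower in limma, beside 8.81% and 4.67% of all genes. Of the 9876 genes at least as bright as the median gene, 1628 were higher and 723 lower by this measure. The median log2 difference, IL2 minus untreated, was 0.26 over the 77 genes (a 1.19-fold ratio) and -0.015 over all genes. Over genes at least as bright as the median gene it was 0.046. Every IL2 array lay above every untreated array for 18 of the 77, beside 6.25% of all genes, and every one below for 0, beside 3.38%. Among the 9876 genes at least as bright as the median gene, the counts were 1151 (11.7%) above and 537 below. The median SE of a gene's difference was 0.13, and the lowest adjusted p of the 77 was 0.0993.

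Some of the calls turned on the normalization or on 1 array. After a further quantile normalization 5 genes were called higher (Mrpl16, Mrpl19, Mrpl23, Mrpl36 and Mrpl50), beside 3.51% of all genes. Without IL2 replicate 1 there were 3 (Mrpl19, Mrpl23 and Mrpl36), beside 2.62%, and without untreated replicate 2 another 3 (Mrpl16, Mrpl39 and Mrps22), beside 2.14%. Testing only genes at least as bright as the median gene gave 1 (Mrpl16) of 68, beside 5.85%.

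**Figure D1:**
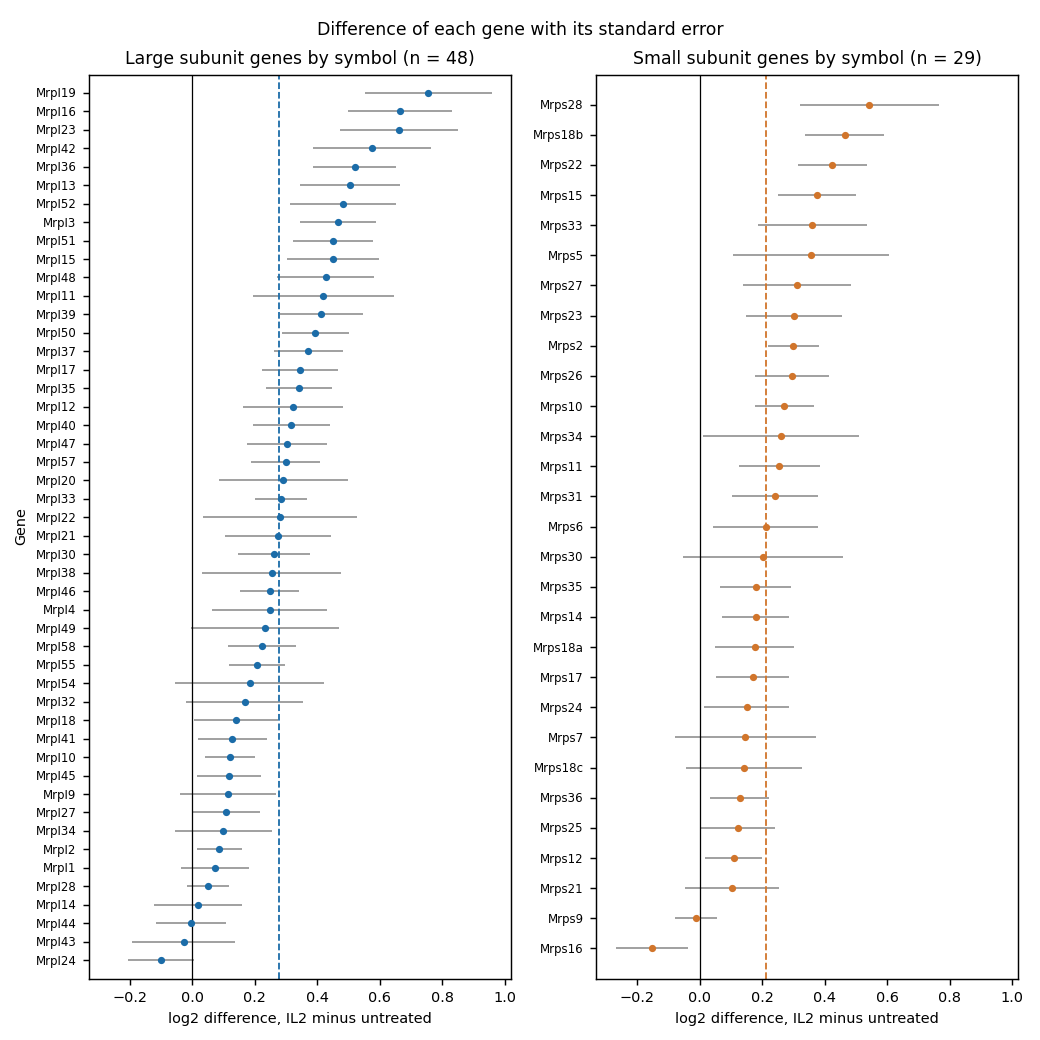
Log2 difference (IL2 minus untreated) of each gene on the horizontal axis, with the SE of the limma fit as a bar, for the 48 large subunit and the 29 small subunit genes. The subunit medians are 0.28 and 0.21, and the points run from 0.75 for Mrpl19 to -0.15 for Mrps16.

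The height of the group differed between the IL2 arrays. Measured from each gene's mean over the untreated arrays, the median of the 77 genes was 0.037 on IL2 replicate 1, 0.16 on replicate 2, 0.39 on replicate 3 and 0.42 on replicate 4. On untreated replicates 2, 3 and 4 it was 0.024, -0.052 and 0.024. IL2 replicates 3 and 4 stood well above the untreated arrays and replicate 1 was close to them. Of the 77 genes, 67 and 65 were above every untreated array on replicates 3 and 4, 49 on replicate 2 and 21 on replicate 1. The shares of all genes were 28.5% and 30.8% on replicates 3 and 4, 15.5% on replicate 2 and 18.3% on replicate 1. IL2 replicate 1 was the lowest IL2 array for 63 of the 77 genes, beside 37.6% of all genes and 64.1% of genes at least as bright as the median gene.

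The 75th percentile of intensity over all probes was also lower on IL2 replicate 1 (291) than on IL2 replicates 2 (318), 3 (342) and 4 (350). Among the untreated arrays it was lowest on replicate 3 (278), where the 77 genes were lowest too, and 318 on replicates 2 and 4. The further quantile normalization gives all arrays 1 distribution of values, and with it 68 of the 77 genes were above 0 with a median of 0.19. Of all genes, 48.4% were then above 0, with a median of -0.0055. In limma, 22 of the 77 and 16.9% of all genes were then at an unadjusted p under 0.05 in either direction. Without this step it was 28 of the 77 and 13.5%.

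**Figure D2:**
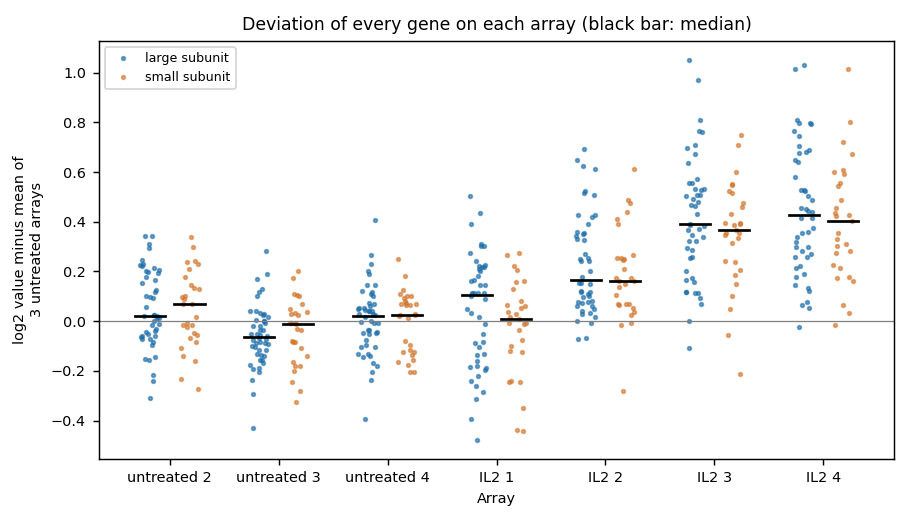
Each point is 1 gene on 1 array, as its log2 value minus its mean over the 3 untreated arrays, split into large and small subunit genes. The medians on IL2 replicates 3 and 4 are 0.39 and 0.43 for the large and 0.36 and 0.40 for the small subunit, against 0.11 and 0.0100 on IL2 replicate 1.

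The titles of replicates 3 and 4 of both groups name the culture time, and those of IL2 replicates 1 and 2 and untreated replicate 2 do not. Over the 4 arrays with the time in the title the median difference of the 77 genes was 0.44, and 75 were above 0. Over the other 3 arrays it was 0.047, with 50 above 0. Genes at least as bright as the median gene also differed between these sets. Their medians were 0.16 with the time and -0.045 without it, with 6751 and 3943 of 9876 above 0. The difference was larger in the first set for 72 of the 77 genes, beside 50.6% of all genes. A limma test of this gap, the interaction of IL2 with title style, called 0 of the 77 and 0 of all genes, with 16 of the 77 (20.8%) and 12.9% of all genes at an unadjusted p under 0.05. Markers of T cells, neutrophils and macrophages differed between these sets of arrays as well, with values given beside the cell type markers, and their part was not tested. With title style as a block, 3 genes were called higher (Mrpl19, Mrpl51 and Mrpl52), beside 2.93% of all genes.

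**Figure D3:**
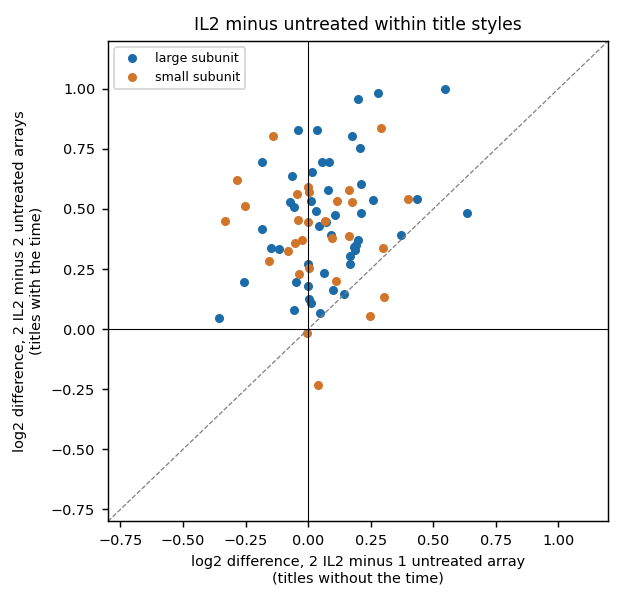
Log2 difference of each gene over the arrays whose titles name the time (2 IL2 and 2 untreated) against that over the other arrays (2 IL2 and 1 untreated). For 72 of the 77 genes the first difference is the larger one, with medians of 0.44 and 0.047.

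The subunits were compared by the same measure. The median difference was 0.28 for the 48 large subunit genes, of which 45 were above 0, and 0.21 for the 29 small subunit genes, of which 27 were above 0. At an unadjusted p under 0.05, 21 large and 7 small subunit genes were higher. The gap of 0.067 between the medians turned to -0.026 after the further quantile normalization and to -0.010 over the arrays with the time in the title. In solved structures of the mammalian mitoribosome the proteins of Mrps18a and Mrps30 sit in the large subunit, and the protein of Mrps36 is now counted with the oxoglutarate dehydrogenase complex. With genes sorted by structure, the medians were 0.27 over 50 large and 0.25 over 26 small subunit genes. The direction of the gap between subunits was therefore not settled by these arrays.

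Among large subunit genes the 5 largest differences were those of Mrpl19, Mrpl16, Mrpl23, Mrpl42 and Mrpl36. Mrpl19, the counterpart of a bacterial protein at the contact of the subunits, had log2 values of 7.85, 7.73 and 8.19 untreated and 8.22, 8.57, 8.97 and 8.94 with IL2. All IL2 arrays were above all untreated arrays, though IL2 replicate 1 lay only just above untreated replicate 4. The mean went from 7.92 ± 0.24 (SD, n = 3) to 8.68 ± 0.35 (n = 4), a difference of 0.75 (SE 0.20, limma adjusted p = 0.122), or 1.69-fold. Without IL2 replicate 1 Mrpl19 passed the test (0.91, limma adjusted p = 0.0382), as it did after the further quantile normalization (0.66, limma adjusted p = 0.0246).

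Mrpl16, whose bacterial counterpart lies near the site of peptide bond formation, had log2 values of 7.78, 7.15 and 7.40 untreated and 7.83, 8.14, 8.20 and 8.25 with IL2. The groups did not overlap, but IL2 replicate 1 was only slightly above untreated replicate 2. The difference was 0.66 (SE 0.17, limma adjusted p = 0.0993), the lowest adjusted p of the 77 genes. It passed the test without untreated replicate 2 (0.83, limma adjusted p = 0.0442).

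Mrpl23, which in bacteria is a protein at the mouth of the exit tunnel for new chains, had log2 values of 9.33, 9.09 and 9.20 untreated and 9.39, 9.83, 10.01 and 10.23 with IL2. Again no IL2 array fell into the untreated range, and replicate 1 came closest to it. The difference was 0.66 (SE 0.19, limma adjusted p = 0.148), and without IL2 replicate 1 the gene passed the test (0.82, limma adjusted p = 0.0239).

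Mrpl42, a mitoribosome protein without bacterial counterpart, had log2 values of 5.76, 5.18 and 5.31 untreated and 5.93, 5.95, 6.39 and 5.72 with IL2, a difference of 0.58 (SE 0.19, limma adjusted p = 0.214). Its groups overlapped, with IL2 replicate 4 below untreated replicate 2. All its values lay below the median gene of every array (6.87 to 6.98), so they do not show that it was detected. Mrpl36, whose bacterial counterpart is a small zinc-binding protein, had log2 values of 8.44, 8.18 and 8.23 untreated and 8.49, 8.80, 8.95 and 8.96 with IL2, a difference of 0.52 (SE 0.13, limma adjusted p = 0.108). Its groups were apart, and it passed the test without IL2 replicate 1 (0.62, limma adjusted p = 0.0279).

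At the low end of the large subunit, Mrpl28, Mrpl14, Mrpl44, Mrpl43 and Mrpl24 had log2 differences of 0.050, 0.019, -0.0045, -0.027 and -0.10. Mrpl24, which in bacteria helps to start assembly of the large subunit, had log2 values of 9.34, 9.02 and 8.98 untreated and 8.92, 9.04, 9.01 and 9.09 with IL2. Untreated replicate 2 was the high array there, and without it the difference was 0.012. Mrpl44, related to nucleases of the RNase III family, had log2 values of 7.26, 7.32 and 7.38 untreated and 7.08, 7.32, 7.32 and 7.54 with IL2, so that the untreated values lay inside the IL2 range. The 95% interval of its difference was -0.27 to 0.26. Mrpl43 had log2 values of 8.09, 8.07 and 8.07 untreated and 7.60, 8.07, 8.20 and 8.33 with IL2, with the IL2 arrays spread to both sides of the untreated ones.

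Among small subunit genes the largest differences were in Mrps28, Mrps18b, Mrps22, Mrps15 and Mrps33. Mrps28 had log2 values of 7.09, 7.01 and 7.43 untreated and 7.34, 7.43, 7.93 and 8.19 with IL2, a difference of 0.54 (SE 0.22, limma adjusted p = 0.336). IL2 replicates 3 and 4 were high, and replicates 1 and 2 lay within or at the edge of the untreated range.

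Mrps18b had log2 values of 8.79, 9.01 and 8.63 untreated and 9.08, 9.30, 9.24 and 9.48 with IL2, a difference of 0.47 (SE 0.13, limma adjusted p = 0.125). Its groups were apart, with 0.54 over the arrays with and 0.40 over those without the time in the title. Mrps18a, Mrps18b and Mrps18c are paralogs that occupy different places in the ribosome. Mrps18a had 8.34, 8.25 and 8.39 untreated and 8.25, 8.39, 8.72 and 8.66 with IL2, a difference of 0.18 (SE 0.13). Mrps18c had 7.78, 7.24 and 7.30 untreated and 7.20, 7.69, 7.83 and 7.60 with IL2, a difference of 0.14 (SE 0.19). In both the groups overlapped, and over the arrays without the time in the title they were at -0.024 and -0.33. Whether the paralogs differ from each other was not tested.

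Mrps22, a mitoribosome protein without bacterial counterpart that is mutated in an inherited mitochondrial disease, had log2 values of 7.74, 7.45 and 7.40 untreated and 7.80, 8.00, 8.08 and 7.93 with IL2. The IL2 arrays were all above the untreated ones, with a difference of 0.42 (SE 0.11, limma adjusted p = 0.111), and the gene passed the test without untreated replicate 2 (0.53, limma adjusted p = 0.048). Mrps15 had log2 values of 8.70, 8.71 and 8.40 untreated and 8.73, 9.01, 9.13 and 9.04 with IL2, a difference of 0.37 (SE 0.12) with its groups apart. Mrps33 had 8.32, 7.84 and 7.91 untreated and 8.01, 8.63, 8.37 and 8.51 with IL2, a difference of 0.36 (SE 0.17) with overlap.

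Mrps16, a conserved protein whose loss impairs the respiratory chain in people, was the lowest of the 77 at -0.15 (SE 0.12, limma adjusted p = 0.675). It had log2 values of 8.44, 8.78 and 8.80 untreated and 8.58, 8.39, 8.46 and 8.66 with IL2, and untreated replicate 2 lay among the IL2 values. Mrps9, Mrps21, Mrps12 and Mrps25 differed by -0.011, 0.10, 0.11 and 0.12. Mrps9 varied little, with 7.51, 7.51 and 7.53 untreated and 7.50, 7.51, 7.46 and 7.55 with IL2, and the 95% interval of its difference was -0.17 to 0.14. Mrps12, a protein of the decoding centre, had log2 values of 6.64, 6.90 and 6.86 untreated and 6.86, 6.90, 7.01 and 6.86 with IL2, a difference of 0.11 (SE 0.090). Mrps36 and Mrps30 differed by 0.13 (SE 0.094) and 0.20 (SE 0.26), and in each IL2 replicate 1 was the lowest IL2 array and below at least 1 untreated array. All values of Mrps36 lay below the median gene of every array, so they do not show that it was detected.

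Exactly equal values on arrays of 1 group, as in Mrps9 and Mrps12, occurred in 17 of the 77 genes and lower their measured spread. Equal values also crossed the groups, as in Mrps9 (7.507 on untreated replicates 2 and 3 and IL2 replicate 2), and can draw a difference toward 0. The share of all genes with equal values was not counted. For the 8 genes with a second probe, both probes gave a difference above 0. The widest gap was in Mrpl51, at 0.45 and 0.19, and Mrpl23 had 0.66 from each.

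**Figure D4:**
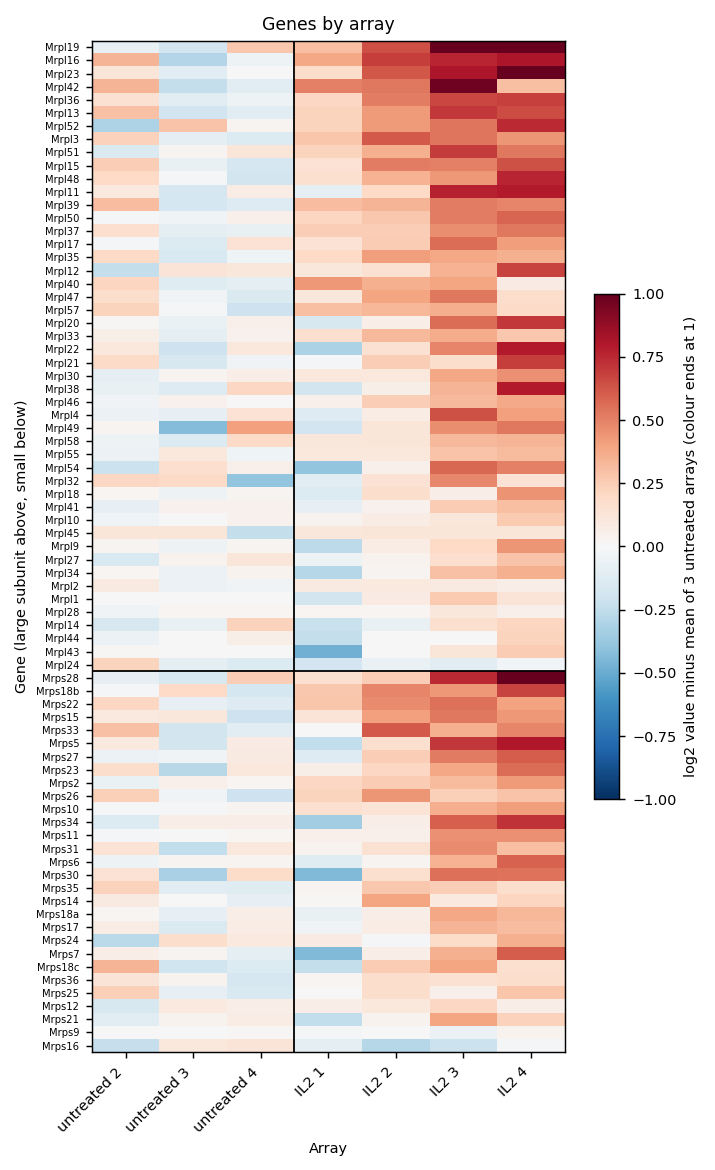
Rows are the 77 genes, grouped by subunit, and columns are the 7 arrays. Colour gives the log2 value minus the mean of the 3 untreated arrays, and most genes are above that mean on IL2 replicates 3 (74 genes) and 4 (75), against 44 on IL2 replicate 1.

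The genes were also grouped by origin within the ribosome. The 30 large subunit genes with a bacterial counterpart had a median difference of 0.28 and the 20 that mitochondria added had 0.25. In the small subunit the medians were 0.17 over 16 genes listed with and 0.30 over 10 genes listed without a bacterial counterpart. The lists place Mrps18c among genes with a counterpart and its paralogs Mrps18a (large subunit) and Mrps18b among those without, so that this sorting is loose. In these 4 groups 29, 18, 14 and 10 genes were above 0, and 0 were called. No test between the groups was made.

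The stalk, which recruits elongation factors, was measured by 4 genes with a median difference of 0.25. Mrpl12, which has also been described to bind the mitochondrial RNA polymerase, had log2 values of 8.35, 8.72 and 8.70 untreated and 8.70, 8.74, 8.94 and 9.27 with IL2, a difference of 0.32 (SE 0.16, limma adjusted p = 0.47). IL2 replicates 3 and 4 were above the untreated range, and replicate 1 was inside it. Its neighbour in the stalk base, Mrpl11, had 7.54, 7.27 and 7.52 untreated and 7.36, 7.65, 8.21 and 8.24 with IL2, a difference of 0.42 (SE 0.22), with the same pair of arrays high. Mrpl10, which anchors the stalk, had 9.34, 9.39 and 9.43 untreated and 9.42, 9.47, 9.50 and 9.65 with IL2, a difference of 0.12 (SE 0.081). The 6 genes of the tunnel exit and membrane anchor ran from -0.10 (Mrpl24) to 0.66 (Mrpl23). The 7 genes of the central protuberance, where the mitoribosome holds a transfer RNA as a structural part, ran from 0.11 (Mrpl27) to 0.43 (Mrpl48).

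Promoters were read because most of the genes lay to 1 side of 0. RefSeq promoter windows (GRCm38.p6, from 250 bases before to 50 after the start) were found for 68 of the 77 genes, in 74 windows. The 4 windows printed here span genes with a larger, a middle and no clear difference and show each motif. Capitals mark, on either strand, the NRF1 motif (10 bases with 1 free base), CCGGAAG (ETS factors such as GABPA), CACGTG (the E-box bound by MYC), AAGATGGC (YY1) and CCAAT (NFY).
Mrpl36 (chr13:73330759-73331058, + strand): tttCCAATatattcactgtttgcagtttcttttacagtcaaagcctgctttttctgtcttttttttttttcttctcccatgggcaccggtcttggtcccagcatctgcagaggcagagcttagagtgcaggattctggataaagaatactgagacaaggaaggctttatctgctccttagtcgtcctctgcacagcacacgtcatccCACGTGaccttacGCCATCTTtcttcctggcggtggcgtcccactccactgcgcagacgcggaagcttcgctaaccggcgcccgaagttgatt
Mrps11 (chr7:78782881-78783180, + strand): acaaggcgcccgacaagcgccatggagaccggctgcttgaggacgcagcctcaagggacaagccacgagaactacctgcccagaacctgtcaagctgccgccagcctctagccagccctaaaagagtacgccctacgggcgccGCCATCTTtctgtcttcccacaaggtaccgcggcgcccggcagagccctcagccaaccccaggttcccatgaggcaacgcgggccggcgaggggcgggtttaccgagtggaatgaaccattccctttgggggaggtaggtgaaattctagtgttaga
Mrps12 (chr7:28741772-28742071, - strand): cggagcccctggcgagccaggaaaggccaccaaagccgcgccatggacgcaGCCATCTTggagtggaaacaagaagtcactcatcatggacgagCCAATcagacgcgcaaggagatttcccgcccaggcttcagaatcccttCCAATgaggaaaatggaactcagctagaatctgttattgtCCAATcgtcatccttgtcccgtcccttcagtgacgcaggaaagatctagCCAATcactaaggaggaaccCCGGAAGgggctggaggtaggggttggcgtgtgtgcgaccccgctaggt
Mrps9 (chr1:42850983-42851282, + strand): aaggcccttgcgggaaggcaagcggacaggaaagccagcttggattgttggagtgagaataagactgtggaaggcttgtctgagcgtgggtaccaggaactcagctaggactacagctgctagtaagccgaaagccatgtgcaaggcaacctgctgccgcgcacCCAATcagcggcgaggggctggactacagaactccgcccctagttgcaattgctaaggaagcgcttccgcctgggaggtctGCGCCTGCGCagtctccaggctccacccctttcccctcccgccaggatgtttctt
Mrpl36, at a difference of 0.52, holds an E-box and a YY1 match just before its start. Mrps11 (0.26) has a YY1 match and starts close to Mrpl46 of the large subunit on the other strand. Mrps12 (0.11) has an ETS match at its start, a YY1 match and 4 CCAAT matches, and Mrps9 (-0.011) an NRF1 match at its start.

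The ETS match was in 33.8% of the 74 windows beside 11.6% of 21263 windows of protein-coding genes, the NRF1 match in 17.6% beside 6.38%, and the YY1 match in 16.2% beside 3.05%. The E-box was in 9.46% beside 7.84% and CCAAT in 39.2% beside 38.2%. For genes at least as bright as the median gene the shares were 18.2% (ETS), 10.2% (NRF1) and 4.68% (YY1). In 56 windows of cytosolic ribosomal protein genes they were 33.9% (ETS), 7.14% (NRF1) and 3.57% (YY1). In 72 windows of respiratory chain genes they were 23.6% (ETS), 23.6% (NRF1) and 13.9% (YY1). High shares of ETS or NRF1 matches were thus not particular to the mitochondrial ribosomal protein genes. The median window held 21 CpG among the 74 and 13 among all, and median GC content was 58.5% and 56.3%. Base composition thus moves with these shares, and its part was not tested. A match is a run of letters and not a shown binding site.

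The differences of genes with and without a match are given as a description, and whether a motif goes with the difference was not tested. The median difference was 0.28 over 25 genes with the ETS match and 0.23 over 43 without, 0.17 over 13 with the NRF1 match and 0.26 over 55 without, and 0.24 over 12 with the YY1 match and 0.25 over 56 without. The 5 genes with an E-box had a median of 0.29 and the other 63 one of 0.25. With CCAAT it was 0.22 over 26 genes and without it 0.26 over 42.

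Of the 68 genes, 24 (35.3%) had another protein-coding gene that starts within 1000 bases and runs the opposite way, beside 8.48% of 17492 protein-coding genes. Mrpl46 and Mrps11, 1 gene of each subunit, start 42 bases apart, and their differences were 0.25 (SE 0.094) and 0.26 (SE 0.13). Mrpl46 had log2 values of 7.80, 7.88 and 7.84 untreated and 7.89, 8.09, 8.16 and 8.22 with IL2, and Mrps11 had 7.22, 7.22 and 7.26 untreated and 7.29, 7.29, 7.69 and 7.69 with IL2. Both had their groups apart, with IL2 replicates 3 and 4 highest. Mrps12 starts 147 bases from Sars2, the mitochondrial seryl-tRNA synthetase gene, which differed by 0.25 (SE 0.15). Over the 23 measured neighbours the median was 0.074 and 14 were above 0. The median of the 24 genes with such a neighbour was 0.25 and that of the 44 without 0.26.

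Other genes that serve the mitoribosome and the expression of mitochondrial DNA were described list by list. Of 4 measured mitoribosome proteins with other names, 3 were above 0 and 0 called, among them Chchd1 at 0.44 (SE 0.25), Ptcd3 at 0.30 (SE 0.15) and Dap3, a GTP-binding protein of the small subunit, at -0.057 (SE 0.17). Of 25 assembly factors, 21 were above 0 and 0 called, with a median of 0.17. The largest were Noa1, a GTPase linked to mitoribosome assembly, at 0.59 (SE 0.20), and Tfb1m, a methyltransferase of the small ribosomal RNA, at 0.56 (SE 0.22).

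Of 16 translation factors, 14 were above 0 and 0 called, with a median of 0.23. Slirp, which protects mitochondrial messages, was at 0.63 (SE 0.28) and the elongation factor gene Gfm1 at 0.56 (SE 0.26). Tufm, the elongation factor that brings charged tRNAs, had log2 values of 8.49, 8.13 and 8.63 untreated and 8.37, 8.63, 9.06 and 9.24 with IL2, a difference of 0.41 (SE 0.22), with IL2 replicate 1 inside the untreated range.

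Of 19 genes of mitochondrial tRNA charging, 1 rose and 18 were above 0, with a median of 0.17. Yars2, the tyrosyl-tRNA synthetase, had log2 values of 7.96, 7.70 and 7.87 untreated and 8.19, 8.61, 8.64 and 8.79 with IL2 and rose by 0.71 (SE 0.15, limma adjusted p = 0.0495). Its groups were apart, but the call failed (limma adjusted p of 0.0879 to 0.174) when any array except IL2 replicate 1 was left out. Those fits called 0.678% to 2.14% of all genes higher, beside 2.08% with all arrays. Nars2, the asparaginyl-tRNA synthetase, differed by 0.49 (SE 0.12, limma adjusted p = 0.0956).

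Of 18 genes of mitochondrial DNA expression, 1 rose and 14 were above 0, with a median of 0.12. Pnpt1, an RNA-degrading enzyme, had log2 values of 8.36, 7.79 and 7.93 untreated and 8.69, 8.82, 9.15 and 8.94 with IL2 and rose by 0.87 (SE 0.16, limma adjusted p = 0.0336). The call failed without untreated replicate 3, untreated replicate 4 or any of IL2 replicates 2 to 4 (limma adjusted p of 0.107 to 0.141). Only 0.678% to 0.901% of all genes were called higher in those fits, beside 2.08% with all arrays. Elac2, which trims tRNA ends, differed by 0.71 (SE 0.21, limma adjusted p = 0.158), the packaging factor gene Tfam by 0.027 (SE 0.26) and the RNA polymerase gene Polrmt by 0.13 (SE 0.11).

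Of 10 regulators of mitochondrial biogenesis 2 rose, Myc and Pprc1, a coactivator of the PGC1 family, and 7 were above 0. Myc had log2 values of 8.45, 8.10 and 8.44 untreated and 10.03, 10.43, 10.79 and 10.65 with IL2 and rose by 2.14 (SE 0.19, limma adjusted p = 0.00153), with IL2 replicate 1 the lowest IL2 array here too. Pprc1 had 7.36, 6.79 and 7.26 untreated and 7.72, 8.18, 7.99 and 8.23 with IL2 and rose by 0.89 (SE 0.17, limma adjusted p = 0.04). Leaving out any array except IL2 replicate 1 ended the call of Pprc1 (limma adjusted p of 0.0559 to 0.143). The share of all genes called higher there was 0.678% to 2.14%. Gabpa and Nrf1, whose motifs were searched above, differed by 0.14 (SE 0.16) and 0.093 (SE 0.16), and both lay below 0 over the arrays without the time in the title (-0.22 and -0.19).

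Set beside other nuclear-encoded lists, the 77 genes had a median (0.26) between those of 24 protein import genes (0.34) and 82 respiratory chain genes (0.22), while 59 cytosolic ribosomal protein genes had -0.022. No test between lists was made. Of the import genes 22 were above 0 and 0 called in limma (11 higher at an unadjusted p under 0.05), with Timm17a at 0.80 (SE 0.18, limma adjusted p = 0.0696) and Tomm70a at 0.75 (SE 0.21). Of the cytosolic list 25 were above 0 and 0 called (3 higher at an unadjusted p under 0.05), with Rps27l at 0.79 (SE 0.25) and Rpl12 at 0.75 (SE 0.21).

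Of the respiratory chain genes 71 were above 0 and 3 rose, namely Ndufs4 by 0.56 (SE 0.072, limma adjusted p = 0.00832), Ndufb7 by 0.65 (SE 0.13, limma adjusted p = 0.0442) and Cox6b1, named after its value was seen, by 0.45 (SE 0.089, limma adjusted p = 0.0414). This count was 1 when any array except IL2 replicate 1 was left out, beside 0.678% to 2.14% of all genes called higher. Without IL2 replicate 1 it was 6, beside 2.62% of all genes. The respiratory chain had the same order of IL2 arrays as the 77 genes, with medians of 0.048, 0.19, 0.34 and 0.37 on replicates 1 to 4. The cytosolic list had this order too, with -0.14, -0.024, -0.0017 and 0.13. Genes at least as bright as the median gene also had it, with -0.046, 0.031, 0.12 and 0.14. The order was thus not particular to the mitochondrial lists.

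**Figure D5:**
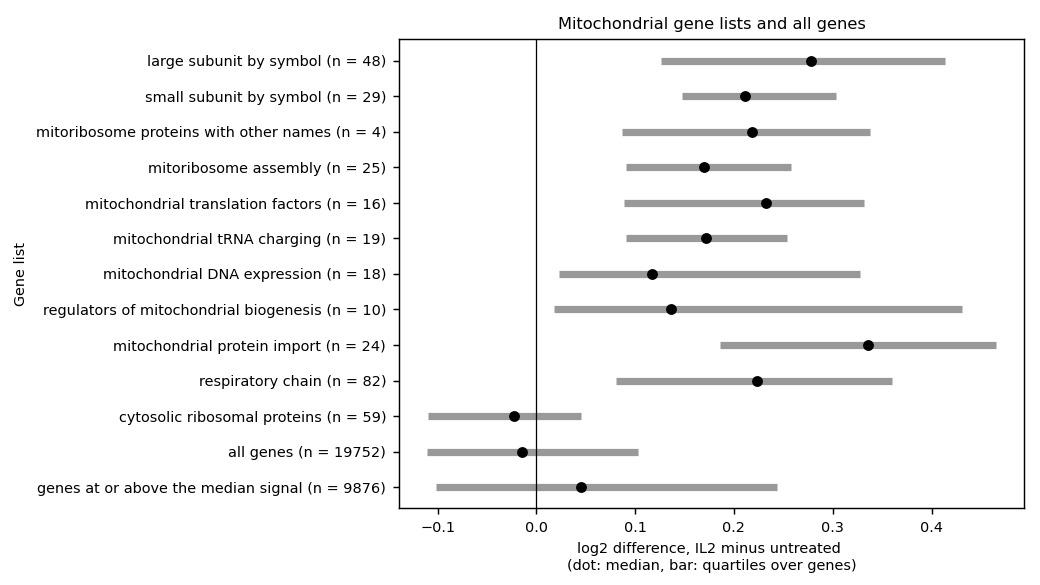
Median and quartiles of the log2 difference (IL2 minus untreated) over the genes of each list. Both subunits (0.28 and 0.21), the import genes (0.34) and the respiratory chain (0.22) lie to the right of 0, and the cytosolic ribosomal proteins (-0.022) and all genes (-0.015) lie close to it.

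Markers of several cell types moved with the groups. Of 10 NK cell markers 3 were higher and 1 lower, 8 were above 0, and the log2 differences ran from -1.85 to 2.27. Their summed linear signal, in which bright genes weigh most, was 9134 to 12404 on untreated and 19869 to 23591 on IL2 arrays. The defining marker Ncr1 had a mean log2 value of 9.28 untreated and 11.46 with IL2, while 2 of the 10 markers had a difference below 0, down to -1.85. Of 10 macrophage and monocyte markers 8 were lower (summed signal 14310 to 15471 against 3883 to 5805). Of 7 B cell markers 1 was lower (13939 to 15335 against 11594 to 12416), and of 8 dendritic cell markers 1 was lower (1821 to 2250 against 1404 to 1519). No marker of neutrophils (8 genes, 7798 to 10667 against 4953 to 7389), T cells (8 genes, 1753 to 2777 against 1586 to 2950) or erythroid cells (2 genes, 186 to 240 against 177 to 195) was called. The dimmest marker by mean log2 value was Xcr1 at 6.22. It lay below the median gene of every array (6.87 to 6.98), as did Alas2 (6.29) and Cd3d (6.61), the dimmest of their lists. Other markers lay below it too, such as Zbtb46 (means of 6.61 untreated and 6.68 with IL2). RMA values are always above 0, so these values do not show that such markers were detected. Fewer cells of a type and less RNA per cell cannot be told apart in these bulk samples, and the part of these shifts in the difference of the 77 genes was not tested. Macrophage and monocyte markers were lower on IL2 replicates 1 and 2 (medians of -2.32 and -2.11 from the untreated mean) than on replicates 3 and 4 (-1.65 and -1.46), where the 77 genes were highest. Neutrophil markers were split the same way, at -1.24 and -0.96 on IL2 replicates 1 and 2 and -0.42 and -0.43 on replicates 3 and 4. T cell markers followed the title styles in both groups. Their medians were -0.41 on untreated replicate 2 and -0.51 and -0.38 on IL2 replicates 1 and 2, against 0.099 and 0.31 on untreated and 0.44 and 0.38 on IL2 replicates 3 and 4.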

How the data were processed

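The authors deposited 1 linear intensity value per probe set and array. Per the submitters' processing notes, RMA and Affymetrix Power Tools were used, with versions and settings not given in the sources used here. Log2 was taken with no offset. Array medians ranged from 121 to 131, and the number of arrays limits the precision.

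Of 24922 probes, 21425 carried 1 symbol in the platform annotation, and the brightest probe of a gene (mean over 7 arrays) was kept. All 77 Entrez identifiers were in the RefSeq table under the same symbol. Groups came from the labels. All 7 arrays entered 1 limma fit (3.58.1, R 4.3.3, lmFit and eBayes, group only), with Benjamini-Hochberg adjustment over 19752 genes. SD is over arrays and SE from the moderated fit, which was tested on simulated data.

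Named were the 5 largest and 5 smallest differences of each subunit, Mrpl12, Mrps12, Mrps30, Mrps36 and the Mrps18 paralogs, and of each other list the 2 largest and 7 fixed genes. Other members were named after their values were seen. The members, lists and tests were chosen with earlier results of these data known. Alternatives were a replicate block, a title style block, each title style alone, a further quantile normalization, median centring, a filter on dim genes, the mean of all probes, eBayes with trend and robust, subunits by structure, and leaving out each array. The interaction with title style was added after seeing the data.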

Additional observations from a re-analysis of the deposited data

Results flagged for a closer look

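Among 52 sets of 4 IL2 values checked, 4 had 1 array far from the others by Dixon's ratio of gap to range, against a critical value of 0.829 that chance passes in about 5% of such sets. Mrps36 (ratio 0.840) had IL2 replicate 1 at 5.70 and the others at 5.83 to 5.86, all below the median gene of every array. Noa1 (0.838) had replicate 1 at 7.66 and the others at 8.21 to 8.32, and Rps27l (0.885) had replicate 1 at 9.02 and the others at 9.67 to 9.75. Ndufs4 (0.841) had replicate 3 at 10.83 and the others at 10.68 to 10.71.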

How the results depend on the processing

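The count of the 77 genes called higher was 0. It was 2 with the replicate block (Mrpl19 and Mrpl23, beside 2.80% of all genes), 3 with title style as a block, 5 after the further quantile normalization, 1 with dim genes filtered out, and 0 to 3 with each array left out. The other settings gave 0. Among these, the arrays without the time hold only 1 untreated array, so that their 0 says little. The arrays with the time called 0.410% of all genes higher and 0.111% lower. None of the 16 settings called any of the 77 lower, where at most 2.92% of all genes were. The median of the 77 was 0.44 and 0.047 over the arrays with and without the time in the title, that of the large subunit 0.44 and 0.069, and that of the small subunit 0.45 and 0.0036. With each array left out it stayed at 0.18 to 0.32 for the 77. The gap between subunits was -0.010 over the arrays with the time, -0.026 after the further quantile normalization, 0.0061 with dim genes filtered out, 0.020 by structure and 0.021 to 0.089 with each array left out, the lowest of them (0.021) leaving out untreated replicate 2, and 0.026 leaving out IL2 replicate 4. The causes were not tested.

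Of the 77 genes, 24 changed sign over the arrays without the time, 23 of them to below 0, and 3 over those with it. The named genes that changed sign follow. With the replicate block Mrpl44, Mrpl43 and Dap3 were at 0.074, 0.12 and 0.094, and with title style as a block Mrpl44 and Mrpl43 at 0.025 and 0.014. Over the arrays with the time Mrpl44, Mrpl43, Mrpl24 and Dap3 were at 0.080, 0.19, 0.044 and 0.20. Over those without it Mrps25, Mrps16, Mrps18a, Mrps18c, Mrps30 and Mrps36 were at -0.16, 0.041, -0.024, -0.33, -0.29 and -0.035, Mrpl11 was at -0.039, and Ptcd3, Gfm1, Tfam, Gabpa and Nrf1 at -0.055, -0.046, -0.68, -0.22 and -0.19. After the further quantile normalization Mrpl14, Mrps21 and Nrf1 were at -0.052, -0.030 and -0.017. With arrays centred on their medians Mrpl44, Mrpl43 and Mrps9 were at 0.026, 0.0030 and 0.019. With each array left out the ranges were -0.060 to 0.13 for Mrpl14, -0.080 to 0.074 for Mrpl44, -0.12 to 0.12 for Mrpl43, -0.17 to 0.012 for Mrpl24, -0.025 to 0.0039 for Mrps9, -0.15 to 0.30 for Tfam, -0.14 to 0.094 for Dap3, -0.00096 to 0.24 for Gabpa and -0.023 to 0.21 for Nrf1. Pnpt1 lost its call with the replicate block (0.94, limma adjusted p = 0.0625), Pprc1 with title style as a block (0.89, limma adjusted p = 0.0503), and Yars2, Ndufb7 and Cox6b1 with the trend and robust options of limma, where Ndufs4 kept its call.

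Replicate numbers 2, 3 and 4 occur in both groups. Deviations of same-numbered arrays from their group means correlated at 0.46, -0.30 and 0.31. These values cannot settle whether such arrays are paired, because deviations from the mean of a small group are tied to each other. Untreated replicates 2 and 4 each correlated best with the IL2 array of the same number. Untreated replicate 3 correlated best with IL2 replicate 1 (0.45), and IL2 replicate 1 has no partner and drops out of the blocked difference.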

Other observations

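Mrpl53 was measured only by a probe that also names Ccdc142 and was kept out of the 77. That probe read 7.68 ± 0.019 (SD, n = 3) untreated and 7.66 ± 0.0087 (n = 4) with IL2, a difference of -0.015 (SE 0.065, limma adjusted p = 0.96 over all 24922 probes).

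Among the genes that start close to a mitochondrial ribosomal protein gene on the other strand, a pair was named after their values were seen. Mitd1, which starts 66 bases from Mrpl30, differed by 0.98 (SE 0.22, limma adjusted p = 0.0696), where Mrpl30 differed by 0.26 (SE 0.11). Pnpla7, 935 bases from Mrpl41, was called lower with a log2 difference of -0.75 (SE 0.11, limma adjusted p = 0.0131), while Mrpl41 differed by 0.13 (SE 0.11). The gaps within these pairs were not tested.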
